A study of Mus musculus with 15 samples.

Results

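The untreated arms of a study of glutamine (Gln) antagonism in pancreatic ductal adenocarcinoma (PDAC) were set against each other: 3 vehicle tumors grown in mice and 3 control cell cultures grown on plastic from the same cell line. These 6 libraries, out of 15 in the series, were picked out by their labels, and the comparison itself was chosen with earlier results of these data known. All 6 carry the HY19636 line, a murine PDAC line whose labelled genotype includes p53 mut. The line came from a primary tumor of a C57BL/6 mouse in which engineered alleles, a floxed p53 allele among them, were under a Cre driven by Ptf1a, a gene of pancreatic progenitors and acinar cells. The vehicle tumors were orthotopic, grown from cells injected with Matrigel, a basement membrane gel, into the pancreata of B6J mice, which the study's methods give as females of 8 to 10 weeks, and the mice received the injection vehicle alone. The control cells grew as 2D monolayers in DMEM with 10% FBS and no drug. The remaining libraries are tumors given DRP-104, cells given 25 uM of the Gln antagonist DON for 24 h and cells kept 24 h without Gln. All comparisons rest on 1 cell line, and nothing in the sources used here says whether a tumor library came from a whole tumor or a piece of it.

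A tumor in the pancreas is a mixture. Carcinoma cells are joined by fibroblasts that lay down collagen, by vessels with their pericytes, and by macrophages and other leukocytes, and PDAC is known for the density of that stroma. A culture of the same line holds carcinoma cells only, bathed in serum, glucose and amino acids and exposed to air. RNA from a whole tumor therefore averages over host and carcinoma cells, while RNA from a dish does not, and in bulk libraries such as these fewer cells of a type and less RNA per cell cannot be told apart.

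The deposited values were counts divided by a size factor for each library, and whole reads were recovered from them: 20.1, 20.7 and 19.7 M reads for vehicle tumors 1 to 3 and 27.1, 27.2 and 48.2 M for control cells 1 to 3. All values below are normalized counts after the 6 libraries were rescaled together, always in the order of libraries 1, 2 and 3 of each group. The tumors and the cultures were deposited in separate tables, as separate experiments, so experiment and growth site cannot be told apart in any result below. Even counts made up 41.9% to 44.0% of the counts from 1 to 20 reads in the tumors and 69.6% to 72.0% in the cultures, for a cause that was not tested. The first principal component held 87.3% of the variance and separated the tumors from the cells. Nothing in the labels says that the cultures of a group were grown apart, so for them p-values measure the spread between these samples, which may be technical.

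Of 15009 genes with a mean of at least 10 normalized counts, 8959 (59.7%) differed at an adjusted p under 0.05 (limma with Benjamini-Hochberg adjustment, as for every adjusted p below), 4958 (33%) higher and 4001 (26.7%) lower in the tumors. Differences of over 2-fold were found for 3535 genes (23.6%) higher and 1191 (7.94%) lower, and 65.9% of genes had no overlap between the 3 tumors and the 3 cultures. The split depended on the scaling: scaling to the total count gave 6199 higher and 2617 lower, and quantile normalization gave 3615 higher and 4660 lower. The median log2 difference over all genes tested was 0.09, and the total count moved it to 0.33 and quantile normalization to -0.14. The side of the difference also followed the level of a gene. Among 7632 genes with a mean of at least 500 normalized counts, 19.98% were called higher and 41.6% lower, with a median of -0.23. No read was found in any control cell library for 586 of the genes tested, and every gene tested had reads in the tumors. With so large a share of all genes called, the count of a list below is to be read against 33% higher and 26.7% lower. For a list of mostly abundant genes, it is to be read against 19.98% and 41.6%. A gene with a culture mean under 10 passed the filter only through the tumors, which all but fixed its side. A culture mean of 10 was reached by 2 of 16 fibroblast, 1 of 9 pericyte and 1 of 11 MHC class II genes listed. It was reached by 1 of 23 acinar, 0 of 15 neutrophil and 0 of 12 B and plasma cell genes. Counts of higher genes in these lists do not test direction.

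Fibroblasts make most of the collagen of the stroma. Of 16 fibroblast markers listed, 14 passed the filter on low values, 13 were higher in the tumors and 1 was lower, with a median log2 difference of 7.90 (7.19 with genes that had no culture read set at the bound defined below). Decorin (Dcn), a small proteoglycan that binds collagen fibrils, stood at 2179, 3541 and 607 in the tumors and had no read in any culture. Pdgfrb, the receptor for platelet-derived growth factor B on fibroblasts and pericytes, stood at 1253, 1339 and 867 in the tumors and also had no culture read. For genes with no culture read, a lower bound on the fold was set by 3 reads in each culture library, and the tumor mean of Dcn was at least 799-fold higher and that of Pdgfrb at least 437-fold higher. Fbln1, an elastic fiber protein, was the exception, with 693, 912 and 475 in the tumors and 1380.5, 1472 and 1018 in the cells. It was thus lower in each tumor (log2 difference -0.93 ± 0.23 (SE), adjusted p = 0.00553). Pdgfra, the receptor that marks fibroblasts of many organs, was not at 0 in the cells, where it read 466, 517 and 382, against 763, 1269 and 684 in the tumors.

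**Figure D1:**
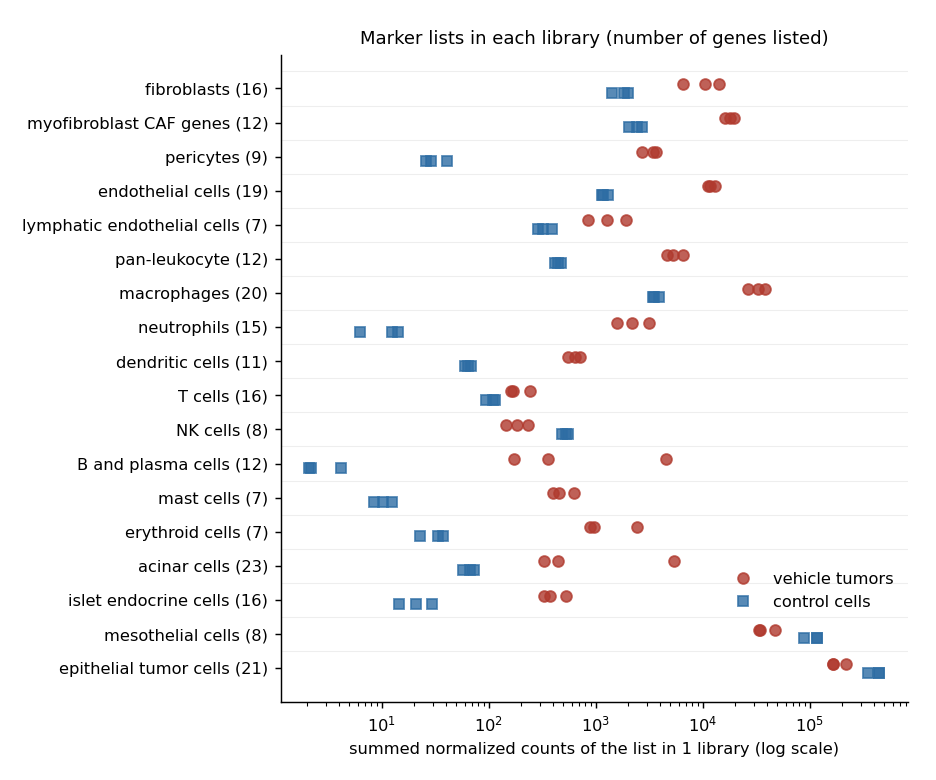
Summed normalized counts of 18 marker lists on a log axis, with 1 point for each of the 3 vehicle tumors (circles) and 3 control cell cultures (squares) and the number of genes listed in brackets. Sums of fibroblasts, vessels and leukocytes other than NK cells lie higher in all 3 tumors than in all 3 cultures, while those of mesothelial, NK cell and epithelial tumor cell genes lie higher in the cultures. In the cultures, the NK cell sum is nearly all Eomes and the mesothelial sum mostly Krt19. Of the epithelial genes tested, 9 were called higher in the tumors and 7 lower.

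Cancer-associated fibroblasts (CAFs) are described in a contractile and an inflammatory state. Of 12 myofibroblast CAF genes, 11 were higher and 1 lower, Tpm2, at 1379, 1876 and 1156 in the tumors and 2357, 2020.5 and 1740.2 in the cells. Smooth muscle actin (Acta2), the classical marker of contractile CAFs, read 966, 888 and 570.4 in the tumors and had no culture read, at least 306-fold higher. Postn, a matrix protein secreted by activated fibroblasts, read 4210.5, 3579 and 3432 and likewise had no culture read. Tenascin C (Tnc) was uneven among tumors at 6246, 1499.6 and 9809.9, lowest in tumor 2, yet far above the 29.5, 31.2 and 32.7 of the cells (log2 difference 7.14 ± 0.53 (SE), adjusted p = 2.37e-06). Of 11 inflammatory CAF genes, 8 were higher and none lower. Cxcl12, a chemokine that retains leukocytes in stroma, read 171, 289 and 62.7, and Il6 read 49.6, 33.9 and 31.4, both without a culture read. Lif, a cytokine of the same family as Il6, read 937, 1002 and 1143 in the tumors and 844, 866 and 789 in the cells and was not called (log2 difference 0.30 ± 0.13 (SE), adjusted p = 0.0726).

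Vessels followed the same side. All 19 endothelial markers were tested and higher, with a median log2 difference of 6.06 (5.34 with bounds). VE-cadherin (Cdh5), the junction protein of endothelium, read 1298, 1213 and 1266 in the tumors against 35.8, 33.3 and 44.1 in the cells (log2 difference 5.03 ± 0.20 (SE), adjusted p = 4.20e-08). Claudin 5 (Cldn5), a tight junction protein of vessels, read 259, 375 and 294 and had no culture read. Flt1, a receptor for vascular endothelial growth factor, was already present in the cells at 859, 1010.2 and 857 and reached 5671, 4343 and 4713 in the tumors. Tumor libraries differed little in these genes: the summed endothelial counts were 13177, 11647 and 11286 in the tumors and 1161, 1306 and 1157 in the cells. All 8 pericyte markers tested were higher as well, among them Rgs5 with 1371, 1487 and 1313 in the tumors and 2.11, 0 and 2.18 in the cells. Of 7 lymphatic markers, 6 were higher, and Flt4 was not called, at 292, 978 and 749 in the tumors and 321, 393 and 289.6 in the cells.

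Leukocytes were read from general markers first. All 12 pan-leukocyte genes were higher, and Ptprc, the CD45 antigen of all white blood cells, read 441, 192 and 282 in the tumors and 8.43, 6.24 and 7.62 in the cells (log2 difference 5.11 ± 0.37 (SE), adjusted p = 1.99e-06). Of 19 macrophage markers, 17 were higher, with a median log2 difference of 7.05 (6.58 with bounds). C1qb, a chain of complement C1q made by tissue macrophages, read 1665, 1648 and 1381 and had no culture read, at least 593-fold higher. Csf1r, the receptor that macrophages need to survive, read 1207, 965 and 957 against 6.32, 8.32 and 5.99 in the cells. Its spread within each group was small beside that gap (log2 difference 7.05 ± 0.26 (SE), adjusted p = 3.39e-08). Arginase 1 (Arg1), an enzyme of macrophages that lowers local arginine, was highest in tumor 2 at 1015, 2754 and 678, against 10.5, 6.24 and 0 in the cells. The mannose receptor Mrc1, often used as a macrophage marker, read 1465, 3220.2 and 2119 in the tumors and 1821, 1659 and 2305 in the pure cultures, and it was not called. Cd14 behaved likewise, at 1639, 1062 and 903 in the tumors and 1544, 1616 and 1435 in the cells.

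Granulocyte genes varied from tumor to tumor. All 10 neutrophil genes tested were higher, of 15 listed, but each passed the filter on low values only through the tumors. S100a9, the calcium-binding protein that fills neutrophils, read 274, 219.9 and 14.5 in the tumors and 0, 2.08 and 0 in the cells, so that tumor 3 was the lowest of its group. S100a8 followed it with 192, 208 and 14.5, again lowest in tumor 3. Lcn2, which epithelium also makes, was highest in tumor 3 at 207, 605 and 699 and had no culture read. Mast cell genes were uneven too: the chymase Mcpt4 read 196, 156 and 341, while Cpa3, a protease of mast cell granules, read 46.2, 24.6 and 1.21.

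Lymphocyte transcripts were sparse. Of 16 T cell markers, only 4 reached the filter on low values and 1 of them was called, Trbc1, a constant segment of the T cell receptor, at 38.3, 53.8 and 48.2 in the tumors and 0, 6.24 and 2.18 in the cells. Cd3e, the signaling chain that defines T cells, stood at 4.51, 0 and 0 in the tumors with no culture read, and Cd8a stood at 2.25, 1.17 and 1.21. In the cultures, Trac and Lck gave 65.3, 52.0 and 42.5 and 31.6, 43.7 and 30.5 normalized counts although no T cell was present by label, and neither was called. Eomes, a transcription factor on the NK cell list, was lower in the tumors at 82.2, 135 and 148 than in the cells at 488, 532 and 553, whereas perforin (Prf1) read 73.2, 7.02 and 13.3 and had no culture read. B and plasma cell genes belonged mainly to tumor 1, where the heavy chain gene Ighm read 1499.7 and the light chain gene Igkc 2138, while tumors 2 and 3 had 52.6 and 21.7 of Ighm and 83.1 and 1.21 of Igkc. No immunoglobulin read of either gene was found in the cultures.

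Acinar genes, which make the digestive enzymes, were read mostly in tumor 3. Of 23 acinar genes, 11 were tested and 9 were higher. Chymotrypsinogen (Ctrb1), a digestive proenzyme, read 39.4, 77.2 and 2235 in the tumors and 0, 0 and 1.09 in the cells. Carboxypeptidase A1 (Cpa1) read 12.4, 9.36 and 309, Reg1 read 69.9, 103 and 925, and neither had a culture read. The summed acinar counts were 332, 446 and 5411 in the tumors, so tumor 3 stood more than 10-fold above the other tumors, and 58.0, 72.8 and 67.0 in the cells. Without tumor 3, 3 acinar genes were tested and called, without culture 1, 6 were called, and with quantile normalization, 5. Insulin 2 (Ins2) read 25.9, 29.2 and 177, again highest in tumor 3, whereas glucagon (Gcg) read 21.4, 57.3 and 21.7 and was highest in tumor 2. The summed islet counts were 332, 374 and 525 in the tumors. Of 9 normal duct genes, 6 were higher and 1 lower, and their summed counts of 24762, 19929.8 and 13419 were lowest in tumor 3, against 18498, 19358 and 17101 in the cells. Fat cell genes were highest in tumor 2: Fabp4, the fatty acid carrier of adipocytes that vessels and macrophages also make, read 195, 749.8 and 135, and adiponectin (Adipoq) read 2.25, 28.1 and 3.62. Hemoglobin from red cells was also highest in tumor 2, with Hbb-bs at 455, 1256 and 459 and no culture read. The share of acinar, B cell or adipose RNA in any difference called below was not tested.

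Fibrillar collagens form the tensile fibers of the stroma. Of 11 genes, 10 were higher in the tumors and none lower, with a median log2 difference of 5.68. Col1a1 and Col1a2 encode the chains of type I collagen, the main fiber of scar and stroma. Col1a1 read 22461, 31004 and 17845 in the tumors and 22.1, 20.8 and 17.4 in the cells (log2 difference 10.11 ± 0.20 (SE), adjusted p = 6.79e-10), and Col1a2 read 16029.6, 23165 and 11628 with no culture read, at least 6421-fold higher. Col3a1, the partner of type I in young scar, read 29111, 42556 and 16563 in the tumors against a total of 2 reads in the cultures. The order of tumors was the same for these 3 genes, with tumor 2 highest and tumor 3 lowest. Other fibrillar collagens were expressed in culture: Col5a1, which nucleates fibrils, read 1664, 1991 and 1711 in the cells and 6867, 7590.4 and 5329 in the tumors (log2 difference 1.87 ± 0.15 (SE)), and Col27a1 read 1364, 1211 and 1529.5 in the cells and 3737, 2467 and 3513 in the tumors. Col2a1, the collagen of cartilage, was not called.

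**Figure D2:**
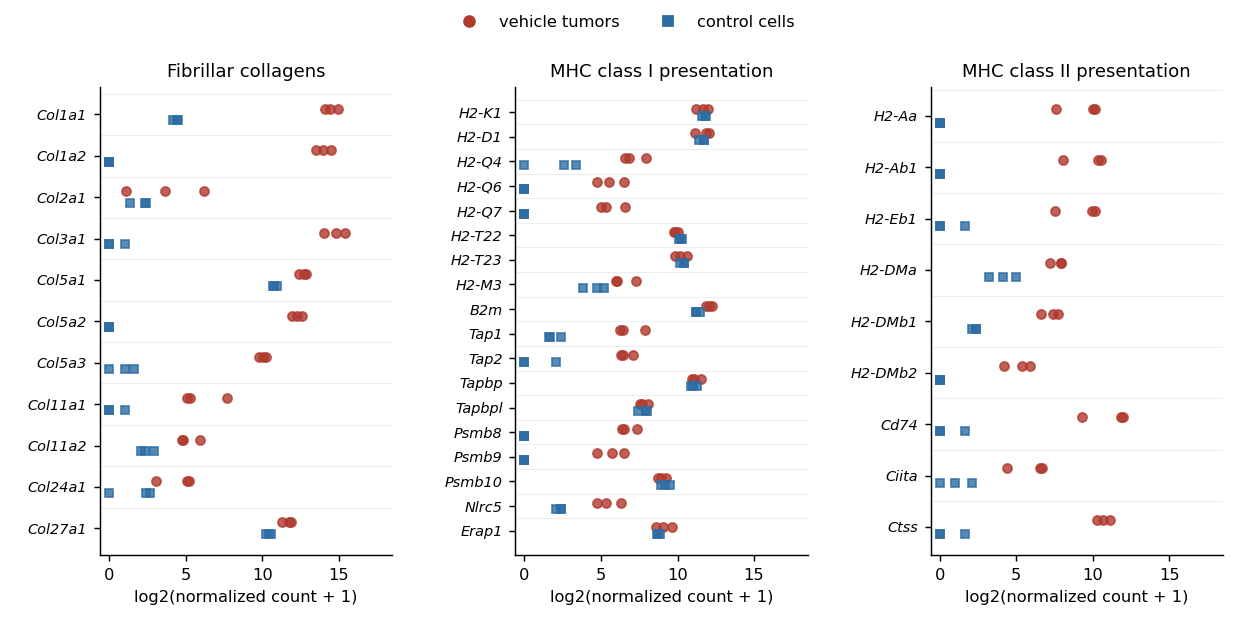
Log2 of normalized counts plus 1 of each tested fibrillar collagen, MHC class I and MHC class II gene in the 3 vehicle tumors (circles) and 3 control cell cultures (squares). Col1a2 and Col5a2 sit at 0 in all 3 cultures and between 11.9 and 14.5 in the tumors, H2-K1, H2-D1 and H2-T23 overlap between the groups, and tumor 2 is the lowest circle for 8 of 9 class II genes.

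Basement membranes underlie epithelium and vessels. The median log2 difference of their genes was 0.52, with 10 higher, 1 lower and 8 not called of 19. Col4a1, the main collagen of basement membranes, was the gene called lower, at 11919, 16459 and 13107 in the tumors and 19255, 21273 and 17844 in the cells (log2 difference -0.50 ± 0.15 (SE), adjusted p = 0.0139), a call lost with the total count and with quantile normalization. Laminin chains split by gene: Lamc1 read 8462, 7265 and 5625 in the tumors and 6833, 7446 and 6469 in the cells, with overlap, whereas Lama4, a laminin chain of vessels and muscle, read 469.8, 514 and 332 in the tumors and 0, 2.08 and 1.09 in the cells.

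Enzymes that finish and cut the matrix were mostly higher. Of 28 genes, 27 were higher and 1 lower. Lysyl oxidase (Lox), which crosslinks collagen, read 1279.9, 2608 and 1021 and had no culture read. Its relative Loxl4 went the other way, with 548, 690.1 and 722 in the tumors and 1522, 1495 and 1318 in the cells (log2 difference -1.15 ± 0.15 (SE), adjusted p = 8.55e-05). Mmp14, a membrane-bound collagenase, was well expressed in the cells at 5246, 6290.3 and 5236 and higher in the tumors at 13129.5, 12068 and 11232. Mmp7, a protease of epithelium, read 117, 366 and 352 and had no culture read. Of 19 secreted matricellular proteins, 17 were higher. Osteopontin (Spp1), a secreted ligand of integrins and CD44, was abundant on both sides, at 274920.0, 175424 and 217105 in the tumors and 93679.9, 99092 and 112832 in the cells (log2 difference 1.11 ± 0.22 (SE), adjusted p = 0.0015). Sparc, which regulates collagen assembly, read 18074, 25158 and 12889.8 against 4.22, 8.32 and 5.44.

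MHC class I genes load peptides from inside the cell for CD8 T cells, and class II genes load peptides taken up by professional presenting cells for CD4 T cells. Of 18 class I genes, 10 were higher and 1 lower. The heavy chain gene H2-K1 read 4044, 3254 and 2395 in the tumors and 3705, 3516 and 3120.0 in the cells, so the groups overlapped (log2 difference -0.12 ± 0.18 (SE), adjusted p = 0.568). H2-D1 also overlapped, at 4284, 3748 and 2282 and 3421, 3462 and 2697. The peptide pump gene Tap1 was different, with 238, 73.7 and 85.6 in the tumors and 2.11, 4.16 and 2.18 in the cells (log2 difference 4.96 ± 0.52 (SE), adjusted p = 2.27e-05). Psmb8 and Psmb9, subunits of the immunoproteasome that trims peptides for class I, read 161, 80.7 and 89.2 and 87.9, 25.7 and 50.6, and neither had a culture read. Nlrc5, the transactivator of class I genes, read 76.6, 39.8 and 25.3 against 4.22, 4.16 and 3.27. Reads of the H2-Q genes may be shared among near-identical copies, so their values are uncertain.

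All 9 class II genes tested were higher, although nearly all passed the filter on low values only through the tumors. H2-Aa, a class II chain, read 1113, 195 and 1029.8 and had no culture read, at least 295-fold higher. The invariant chain Cd74 read 4072, 625 and 3653 in the tumors, against 2 reads in the cultures. Tumor 2 was the lowest for both, and for the class II transactivator Ciita at 103, 19.9 and 91.6, while it was the highest for cathepsin S (Ctss), a protease of the same route, at 1616, 2212 and 1254.

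Interferon-stimulated genes leaned higher. Of 27 genes tested, 21 were higher and 1 lower, with a median log2 difference of 2.72, whereas quantile normalization gave 10 higher of 24 and a median of 0.60. Isg15, a ubiquitin-like protein, read 76.6, 45.6 and 73.6 in the tumors and 8.43, 6.24 and 4.90 in the cells (log2 difference 3.13 ± 0.41 (SE), adjusted p = 0.000111). The guanylate-binding protein gene Gbp2 read 326, 149.7 and 123 against 8.43, 16.6 and 9.80 (log2 difference 3.91 ± 0.43 (SE), adjusted p = 3.28e-05). Their regulator Irf1, however, read 1133, 599 and 799.5 in the tumors and 771, 889 and 710.3 in the cells, Stat2 read 596, 289 and 368 and 477, 494 and 410.4, and neither was called. Irgm1, an interferon-induced GTPase, was lower, at 1195, 911 and 799.5 against 1383, 1299 and 1329, a call lost with the total count. Tumor 1 was the highest tumor for Gbp2, Irf1 and Stat2. The sequences shown here and below come from RefSeq promoters on GRCm38.p6, 250 bases before to 50 after the start of transcription, 100 bases of each around a motif, to let the letters of a pathway's known motif be seen beside genes that moved. The interferon-stimulated response element, searched on both strands as were all motifs below, was found in 16 of 24 listed interferon genes with a promoter and in 3.99% of all 27025 promoters. The 14 tested genes with it had a median log2 difference of 1.55, and the 7 without it had 1.94. Stat2 and Irgm1, which were not called higher, also hold it. In the promoter of Gbp2 (chr3:142620559-142620658, + strand) the capitals mark that motif.
Gbp2: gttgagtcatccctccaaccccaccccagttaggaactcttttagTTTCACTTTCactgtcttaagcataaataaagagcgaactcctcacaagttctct

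Complement was higher in the tumors almost throughout, with 18 of 20 genes called. C3, the hub of the cascade, read 1335, 1758 and 604 in the tumors and 6.32, 10.4 and 0 in the cells. C4b, a component of the classical route, read 732, 957 and 215 against 2.11, 0 and 1.09. Among secreted signals, 20 of 31 cytokine and chemokine genes were higher and 1 lower. Tgfb1, the ligand that drives matrix production in fibroblasts, was already high in the cells at 5650.5, 6739 and 5127 and reached 10201, 10474 and 13639 in the tumors (log2 difference 0.97 ± 0.15 (SE), adjusted p = 0.000339). Ccl6, a macrophage chemokine, was highest in tumor 2 at 651, 3978 and 397 and had no culture read. Cxcl5, which draws neutrophils, overlapped between groups at 379.7, 243 and 77.2 and 148, 126 and 148. Cx3cl1, a membrane-bound chemokine, was lower in the tumors, at 1291, 1115 and 929 against 1538, 1632 and 1254, although the groups overlapped (log2 difference -0.41 ± 0.16 (SE), adjusted p = 0.043) and the call was lost in edgeR.

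Epithelial genes mark the carcinoma cells, although mesothelium and normal ducts make some of the same keratins. Of 20 epithelial genes, 9 were higher and 7 lower. Scaling to the total count gave 10 and 5 and quantile normalization 8 and 4, and among genes with a mean of at least 50 the list median turned from 0.49 to -0.35. Krt7, Krt8, Krt18 and Krt19, keratins of simple epithelium, were lower. Krt19 read 23754, 24226 and 23904 in the tumors and 104320.0, 103368 and 77139 in the cells (log2 difference -1.97 ± 0.16 (SE), adjusted p = 4.74e-06), and Krt8, Krt7 and Krt18 were lower by 1.34, 1.53 and 0.71 on the log2 scale. E-cadherin (Cdh1), the adhesion protein of epithelium, was lower by less, at 17740.0, 17379.8 and 15878 against 22598, 22919 and 20318 (log2 difference -0.37 ± 0.12 (SE), adjusted p = 0.0259), a call lost with the total count and with the replicate block.

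Other epithelial genes were higher. Epcam, an epithelial adhesion molecule, read 1742, 4955 and 3009 in the tumors and 274, 368 and 286 in the cells (log2 difference 3.27 ± 0.31 (SE), adjusted p = 1.12e-05). The protease St14 read 203, 587 and 537 against 12.6, 16.6 and 6.53, and claudin 4 (Cldn4) read 205, 1317 and 926 against 40.0, 54.1 and 55.5. Esrp1, a splicing factor of epithelial cells, read 92.4, 435 and 316 against 35.8, 29.1 and 40.3 (log2 difference 2.71 ± 0.49 (SE), adjusted p = 0.000855). For Epcam, Cldn4, St14 and Esrp1 every tumor exceeded every culture, and tumor 1 was the lowest tumor. The epithelial list therefore did not move as a block, with Krt7, Krt8, Krt18 and Krt19 on the lower side and Epcam, Cldn4, Esrp1 and St14 on the higher side.

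**Figure D3:**
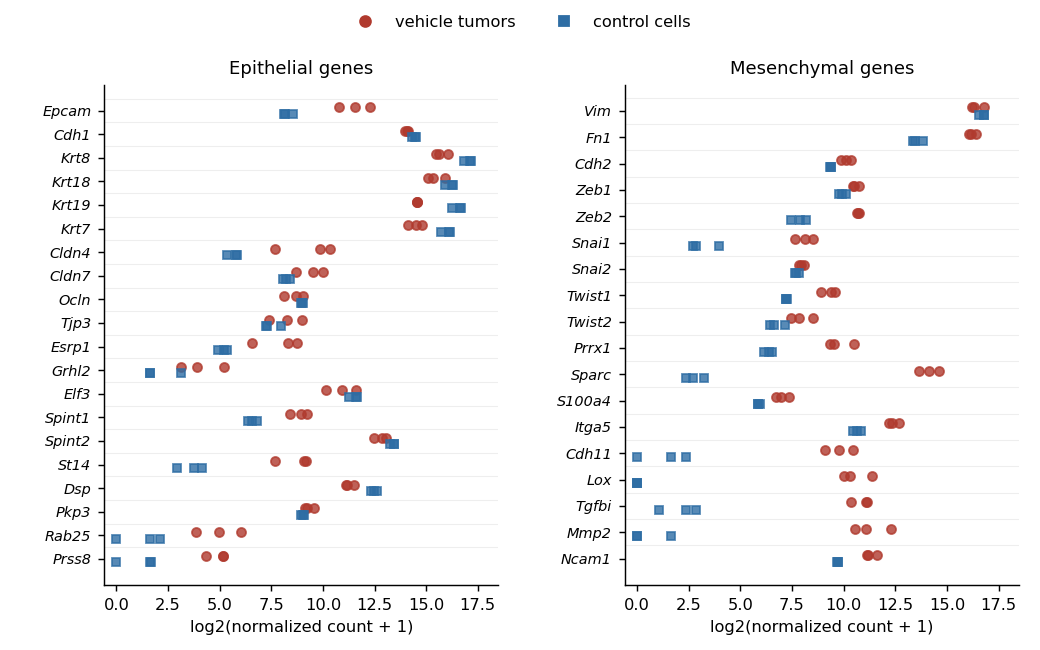
Log2 of normalized counts plus 1 for each tested epithelial gene (left) and mesenchymal gene (right) in the 3 vehicle tumors (circles) and 3 control cell cultures (squares). Krt7, Krt8, Krt18 and Krt19 sit lower and Epcam, Cldn4, Esrp1 and St14 higher in the tumors, Vim and Snai2 overlap, and Lox is at 0 in all 3 cultures.

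Mesenchymal genes were higher in 16 of 18 cases and lower in none. Vimentin (Vim), the filament protein of mesenchymal cells, was as abundant in the cultures (112442, 114200.0 and 96362) as in the tumors (77132, 112559 and 81993) and was not called. Zeb1, a repressor of epithelial genes, read 1395, 1442 and 1688 against 888, 969.7 and 1117 (log2 difference 0.61 ± 0.14 (SE), adjusted p = 0.0034), and Zeb2 read 1619, 1675 and 1724 against 174, 233 and 289.6 (log2 difference 2.87 ± 0.19 (SE), adjusted p = 9.96e-07). Snai1 read 275, 361 and 197 and 6.32, 14.6 and 5.44, while its relative Snai2 overlapped at 241, 228 and 268 and 231, 209 and 197. Fibroblasts express most of this list as well, and the share of each cell type in it was not tested.

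Genes of the gastric-like classical state of PDAC were split, 7 higher and 7 lower of 17. Among its transcription factors, Hnf4a, Pdx1, Foxa2 and Foxa3 were lower and Onecut2 higher. Hnf4a read 4073, 3258 and 3489 in the tumors and 10039.6, 10642 and 9257 in the cells (log2 difference -1.47 ± 0.12 (SE), adjusted p = 5.30e-06), and Pdx1, the factor that specifies pancreas, read 1039, 602 and 880.3 against 2781, 2976 and 2603 (log2 difference -1.76 ± 0.18 (SE), adjusted p = 2.28e-05). Onecut2 read 12172, 8857 and 10149 against 3021, 3749.6 and 5504 (log2 difference 1.38 ± 0.20 (SE), adjusted p = 0.000239). Gata6, which sustains the classical state, was not called, at 1269.8, 1938 and 1374 and 1423, 1503 and 1551 with overlap. Cldn18, a gastric claudin, also overlapped, at 16548, 21578 and 22006 and 20818, 20842 and 18079. Secreted gastric products were uneven among tumors: Muc5ac read 4340.1, 592 and 268, highest in tumor 1, against 255, 226 and 202 in the cells (log2 difference 1.96 ± 0.76 (SE), and 0.81 and no longer called without tumor 1), and Tff2 read 432, 19.9 and 72.4 with no culture read. Of 11 basal-like genes, 6 were higher and 3 lower, Lama3 and Lamb3, chains of a laminin of epithelium, among the higher ones. The lower ones were Krt15, S100a2 and the abundant Sprr1a, at 5893, 10294 and 12161 against 15058, 17401 and 12557. Quantile normalization gave 4 higher and 2 lower of 9 and moved the list median from 1.26 to 0.17. Lama3 read 1017, 5640.4 and 3056 in the tumors and 19.0, 14.6 and 19.6 in the cells (log2 difference 7.13 ± 0.49 (SE), adjusted p = 1.48e-06), with tumor 1 the lowest tumor. Trp63, the master factor of basal cells, was at or near 0 in all 6 libraries.

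Trp53, mutant in the model by its label, read 326, 477 and 387 in the tumors and 185, 177 and 171 in the cells (log2 difference 1.14 ± 0.20 (SE), adjusted p = 0.00067). Counts per gene do not separate mutant from normal alleles, and host cells bring normal ones. Cdkn2a, a tumor suppressor often lost in PDAC, was lower, at 7436, 6326 and 7776 against 10174, 9883 and 8239, a call lost with the total count, and Smad4 overlapped at 2634, 3508 and 2781 and 2599.7, 2966 and 2921. Of 15 drivers and suppressors, 6 were higher and 4 lower, against 7 and 1 with either the total count or quantile normalization, and 1 lower without culture 1 or culture 2 and 2 lower without tumor 2. The p53 targets were mixed, 8 higher and 7 lower of 20 (10 and 5 with the total count). Pmaip1, a promoter of cell death, read 1387, 2303 and 1624 against 322, 356 and 531, and Tnfrsf10b, a death receptor, read 971, 873 and 884 against 1968, 2017 and 1758. Genes of the Y chromosome, 7 listed, had no read in any of the 6 libraries. Xist, the RNA that coats the inactive X chromosome, read 9799, 10496 and 9302 in the tumors and 1854, 1577 and 3295 in the cells, so it was present in the cultured line as well as in tumors of female mice.

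Cell division genes were lower in the tumors. Of 29 genes that license and copy DNA, 28 were lower and none higher, with a median log2 difference of -1.43 against 0.09 over all genes, and all 29 had no overlap between groups. Mcm5, a subunit of the helicase that opens origins, read 1012, 823 and 1220.4 in the tumors and 5432, 5573 and 4676 in the cells (log2 difference -2.37 ± 0.15 (SE), adjusted p = 9.69e-07). Cdc6, which loads that helicase, read 266, 159 and 212 against 1032, 1209 and 1119.7 (log2 difference -2.42 ± 0.20 (SE), adjusted p = 4.36e-06). Rrm2, the subunit of ribonucleotide reductase that limits the supply of DNA precursors, read 1622, 3336 and 1917 against 11498, 11044 and 11859, with tumor 2 the highest tumor and still below every culture. All 28 mitotic genes were lower, with a median of -1.48. Bub1b of the spindle checkpoint read 1055, 925 and 1126 against 5209, 5385 and 4860.2, and Cdc20, which starts chromosome separation, read 953, 1325 and 921 against 5649, 5679.6 and 4465 (log2 difference -2.31 ± 0.16 (SE), adjusted p = 1.73e-06). Mki67, the antigen stained as Ki-67, was lower by less, at 2751, 2589.8 and 2379 against 4783, 6145 and 7654 (log2 difference -1.24 ± 0.16 (SE), adjusted p = 0.000104).

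Host cells in the tumors were counted together with carcinoma cells in these values, and the summed replication counts of 29318, 26939 and 31195 in the tumors and 88141, 88143 and 83902 in the cells are averages over both. The E2F motif, TTTGGCGC or TTTCCCGC, which E2F factors bind in genes of S phase, was found in 10 of 24 replication promoters and in 1.8% of all promoters. The cell cycle homology region TTTGAA, bound by the complex that switches mitotic genes on late in the cycle, was found in 16 of 22 mitosis promoters and in 20.2% of all. Mitosis promoters also held CCAAT in 18 of 22 cases, against 41.1% of all. Promoters of Cdc6 (chr11:98907967-98908066, + strand), Mcm5 (chr8:75109314-75109413, + strand) and Cdc20 (chr4:118437344-118437443, - strand) are shown because each is among the 3 largest falls of its list and holds a motif match before the start of transcription. Capitals mark the E2F motif, read on the opposite strand, in Cdc6 and Mcm5 and TTTGAA in Cdc20.
Cdc6: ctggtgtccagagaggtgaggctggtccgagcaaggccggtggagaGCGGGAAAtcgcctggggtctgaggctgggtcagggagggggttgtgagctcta
Mcm5: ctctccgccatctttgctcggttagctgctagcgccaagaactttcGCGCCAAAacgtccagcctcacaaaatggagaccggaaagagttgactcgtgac
Cdc20: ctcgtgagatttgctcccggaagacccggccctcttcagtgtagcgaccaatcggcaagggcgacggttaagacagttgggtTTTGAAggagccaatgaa

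Regulators of the G1 phase were lower in 9 of 15 cases and higher in 2. Ccnd1, the cyclin that mitogens induce, read 13267, 15950.4 and 14869 in the tumors and 23855, 25402 and 21946 in the cells (log2 difference -0.69 ± 0.13 (SE), adjusted p = 0.00109), and its kinase gene Cdk4 read 5972, 6141 and 8295 against 13853, 13669.9 and 11539. The 2 genes called higher were both inhibitors of division. Cdkn1a read 1106, 2165 and 1427 against 960.0, 909 and 839.9 (log2 difference 0.74 ± 0.21 (SE), adjusted p = 0.0116), and Cdkn1c read 179, 187 and 268 against 47.4, 31.2 and 25.6 (log2 difference 2.59 ± 0.31 (SE), adjusted p = 6.26e-05). Inhibitors on the list of drivers and suppressors did not rise: Cdkn2a was called lower and Cdkn2b was not called. Histone genes, which S phase needs in bulk, were counted apart. Of 13 tested, 3 were higher and 1 lower, and quantile normalization gave 1 higher and 5 lower. The gene called lower was H1f0, a linker histone that does not need S phase, and its groups overlapped.

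Genes of the MYC network and of ribosome production, taken as 1 list, were mostly lower, 24 of 34 genes, with 3 higher. Myc itself, the driver of this program, was not called, at 3725, 3955 and 3869.7 in the tumors and 3704, 3635 and 3268 in the cells (log2 difference 0.12 ± 0.11 (SE), adjusted p = 0.344). Nolc1, a nucleolar chaperone, read 2062, 2468 and 2309 against 5837, 5834 and 5471, and Odc1, the first enzyme of polyamine synthesis and a known MYC target, read 4647, 5883 and 4340.0 against 13536, 13319 and 11921 (log2 difference -1.39 ± 0.14 (SE), adjusted p = 1.59e-05). Mxi1 and Mxd1, which oppose MYC at its binding partner MAX, were among the genes called higher, Mxi1 at 2656, 3948 and 3731 against 1145, 1220.4 and 1157 (log2 difference 1.53 ± 0.15 (SE), adjusted p = 1.79e-05). The enzymes that charge tRNAs with amino acids were lower in 19 of 21 cases, Vars by the most at 3608, 4964 and 3477 against 13128, 13379.7 and 10298.

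**Figure D4:**
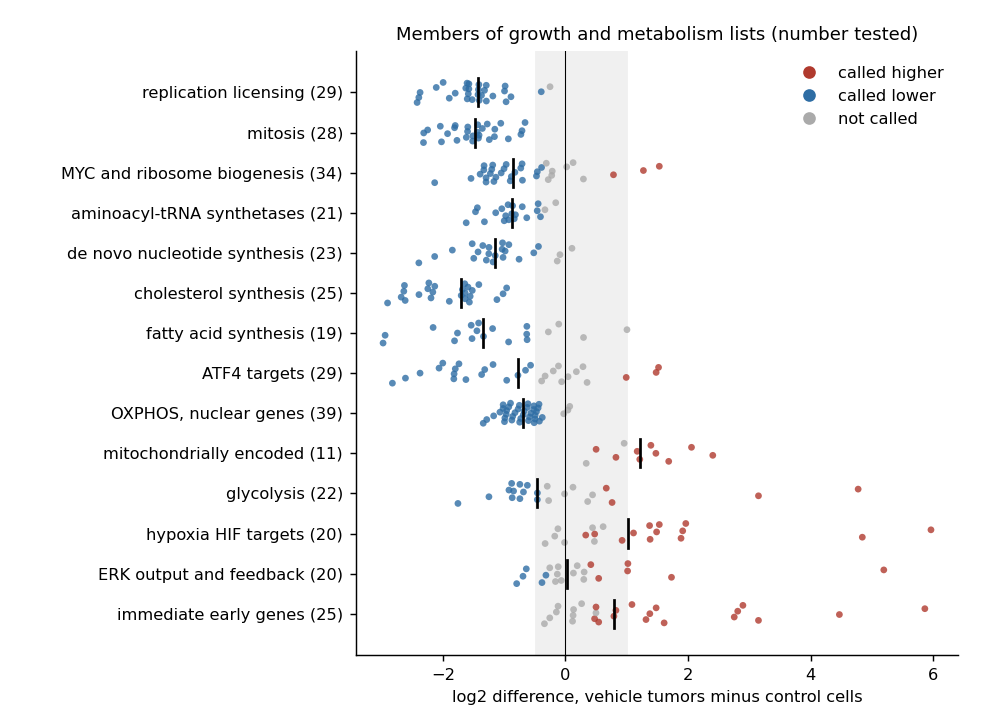
Log2 difference of vehicle tumors minus control cells for each tested member of 14 growth, metabolism and signaling lists, with a black bar at each list's median and the shaded band from the first to the third quartile of all 15009 genes, -0.48 to 1.00. Every mitosis and cholesterol synthesis gene lies below 0, while hypoxia targets and mitochondrially encoded genes reach to the right.

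Sterol synthesis was lower as a whole in the tumors. All 25 genes of the list were called, with a median log2 difference of -1.70 and no overlap for any. Hmgcs1, an early enzyme of the mevalonate route, read 2942, 1904 and 1723 in the tumors and 6738, 6399.6 and 7709 in the cells (log2 difference -1.70 ± 0.19 (SE), adjusted p = 3.03e-05). Insig1, which holds the sterol sensor in the endoplasmic reticulum, was lower with them, at 1419, 1994 and 973 against 8958, 8163 and 9104. Srebf2, the factor that activates the route, was lower by 1.12 on the log2 scale. Apoe and Abca1, which carry sterol out of cells, lay on the other side. Abca1 read 1138, 1178 and 1248 against 29.5, 29.1 and 47.4 (log2 difference 5.07 ± 0.23 (SE), adjusted p = 1.33e-07), and Apoe, which macrophages make in quantity, read 13820.2, 17966 and 12254 against 90.6, 99.9 and 93.1. The sterol regulatory element TCACNCCAC was found in 1 of 17 promoters of the list, that of Hmgcs1 (chr13:119690168-119690267, + strand), and in 1.44% of all promoters, whereas CCAAT was found in 16 of 17. The element is in capitals.
Hmgcs1: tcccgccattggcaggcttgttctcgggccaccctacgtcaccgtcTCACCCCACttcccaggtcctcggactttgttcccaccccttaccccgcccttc

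Fatty acid synthesis followed, 15 of 19 genes lower and none higher. Scd1, the desaturase that makes oleate, read 2696, 3164 and 1853 in the tumors and 19539, 20514 and 17972 in the cells (log2 difference -2.94 ± 0.18 (SE), adjusted p = 6.55e-07). Fads2, which begins the synthesis of polyunsaturated chains, read 1568, 962 and 1067 against 9542, 10142 and 8131, and fatty acid synthase (Fasn) read 5845, 5548 and 6728 against 15602, 18049 and 14768 (log2 difference -1.42 ± 0.13 (SE), adjusted p = 9.44e-06). Genes for lipid uptake and oxidation were split, 8 higher and 9 lower (9 and 6 with the total count). Lpl, which frees fatty acids from lipoproteins, was highest in tumor 2 at 539, 1459.8 and 282 against 35.8, 26.0 and 34.8 in the cells. Cpt1a, which admits fatty acids to mitochondria, was not called, at 1963, 4139.7 and 2091 and 3769, 3829 and 3339.9.

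Gln and amino acid genes were of interest because the study's drugs block Gln use. Of 26 Gln and glutamate genes, 17 were lower and 3 higher in the untreated tumors. Gln synthetase (Glul), which makes Gln from glutamate, was lower, at 4035, 5201 and 2746 in the tumors against 8946, 8899.7 and 7471 in the cells (log2 difference -1.12 ± 0.20 (SE), adjusted p = 0.000827). The Gln amidotransferases that DON inhibits, which move the amide nitrogen into nucleotides, asparagine and amino sugars, were split. Asparagine synthetase (Asns) read 514, 787 and 668 against 3999, 3419.8 and 2758 (log2 difference -2.37 ± 0.18 (SE), adjusted p = 3.06e-06), and Cad, which starts pyrimidine synthesis, read 1206, 1277 and 1017 against 5014, 5543 and 4778 (log2 difference -2.13 ± 0.13 (SE), adjusted p = 5.90e-07). Ppat, which starts purine synthesis, read 1226, 1177 and 948 against 2197, 2157 and 2403. Gfpt1, which starts hexosamine synthesis, was not called, at 4612, 3268 and 2852 and 3777, 4247 and 4287, and its relative Gfpt2 read 176, 283 and 117 with no culture read, at least 72.7-fold higher.

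Nucleotide synthesis as a list had 20 of 23 genes lower and none higher, with a median of -1.15. Mthfd1, which supplies one-carbon units, read 1466, 1359 and 1255 in the tumors and 5147, 5037 and 4493 in the cells. Umps, which completes UMP, read 982, 841 and 819 against 2657, 2501 and 2293 (log2 difference -1.50 ± 0.13 (SE), adjusted p = 5.44e-06). Of 29 targets of ATF4, the transcription factor of the amino acid response, 17 were lower and 3 higher. Serine synthesis enzymes were lower together: Psat1 read 1905, 2515 and 2137 against 14429.7, 13409 and 12093 (log2 difference -2.61 ± 0.13 (SE), adjusted p = 2.52e-07) and Phgdh read 6796, 9134 and 10014 against 28540.1, 28443 and 22467 (log2 difference -1.62 ± 0.17 (SE), adjusted p = 2.19e-05). Chac1, which degrades glutathione under stress, read 152, 83.1 and 177 against 548, 617 and 434, and Slc7a11, the cystine importer, read 326, 936 and 230.3 with tumor 2 highest, against 1236, 1317 and 1825. Not all members were lower: Ddit3 read 471, 517 and 523 and 409, 381 and 392 and was not called, and Atf3, also an immediate early gene, was higher at 276, 489 and 187 against 103, 91.6 and 121.

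The ATF4 motif TGATGNAA was found in 9 of 27 promoters of ATF4 targets and in 5 of 14 of tRNA synthetases, against 4.51% of all promoters. It is shown in capitals for Asns (chr6:7693210-7693309, - strand) and, read on the opposite strand, for Chac1 (chr2:119351003-119351102, + strand), the members with it that fell most.
Asns: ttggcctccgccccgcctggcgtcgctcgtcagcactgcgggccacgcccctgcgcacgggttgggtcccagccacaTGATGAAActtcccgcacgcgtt
Chac1: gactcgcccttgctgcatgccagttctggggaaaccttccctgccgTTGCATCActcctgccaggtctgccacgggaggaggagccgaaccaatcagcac

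Amino acid transporters were split, 9 higher and 11 lower of 23. Slc7a5, the importer of leucine and other large neutral amino acids, read 1869, 3079.9 and 2169 in the tumors and 6092, 6092 and 5216 in the cells, and the Gln importer Slc1a5 read 1705, 1535 and 859 against 2581, 2396 and 2281 (log2 difference -0.88 ± 0.22 (SE), adjusted p = 0.00573). Slc38a2, which also imports Gln, was not called, at 7355, 8318 and 8649.9 and 7545, 7312 and 8789. Slc7a2, an importer of arginine and lysine, was the largest rise among those with more than a few culture reads, at 1104, 1107 and 1054 against 8.43, 8.32 and 5.44 (log2 difference 7.04 ± 0.26 (SE), adjusted p = 3.39e-08).

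Energy genes divided by genome. Of 39 nuclear genes of oxidative phosphorylation, 36 were lower and none higher, with a median log2 difference of -0.69. Atp5b, the catalytic subunit of ATP synthase, read 15969.9, 19215 and 19840.5 in the tumors and 49379, 48958 and 41041 in the cells (log2 difference -1.34 ± 0.15 (SE), adjusted p = 3.33e-05), and Cox6a1 of complex IV read 3602, 3731 and 3545 against 9608, 9524 and 7543. Mitochondrially encoded genes were higher in 9 of 11 cases and lower in none, with a median of 1.21. Of these, mt-Co1 of complex IV read 355089, 285205 and 294425 against 131021, 127058 and 143864 (log2 difference 1.21 ± 0.21 (SE), adjusted p = 0.000586), and mt-Nd4 of complex I read 52646, 30127 and 45797 against 14083, 14309.8 and 16756 (log2 difference 1.48 ± 0.20 (SE), adjusted p = 0.000126). Tumor 1 was the highest and tumor 2 the lowest for both. Reads of mt-Co2, mt-Co3, mt-Atp6 and mt-Nd3 were few in all libraries and may be shared with nuclear copies, so these 4 are uncertain.

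Glycolysis was lower in 12 of 22 genes and higher in 4 (10 and 7 with the total count, 8 and 5 with quantile normalization). Lactate dehydrogenase (Ldha) read 31879, 33279.9 and 34597 in the tumors and 62472, 66428 and 51478 in the cells (log2 difference -0.85 ± 0.15 (SE), adjusted p = 0.000853). The glucose transporter gene Slc2a1 was not called, at 5323, 9312 and 6776 and 5109, 5534 and 4738, with tumor 2 highest.

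Targets of the hypoxia-inducible factors (HIFs), which accumulate when oxygen is low, were higher in 13 of 20 cases and lower in none. Carbonic anhydrase 9 (Car9), used as a marker of hypoxic tissue, read 1457, 1890.3 and 1271 in the tumors and 20.02, 27.1 and 23.4 in the cells (log2 difference 5.96 ± 0.23 (SE), adjusted p = 3.98e-08). Vegfa, which calls in vessels, read 11204, 13116 and 11308 against 3008, 2973 and 3129 (log2 difference 1.96 ± 0.11 (SE), adjusted p = 5.03e-07), and Bnip3, which removes mitochondria by mitophagy, read 2537, 3657 and 3137 against 717, 843 and 899 (log2 difference 1.91 ± 0.16 (SE), adjusted p = 4.36e-06). Tumor 2 was the highest tumor for all 3, and for adrenomedullin (Adm) at 522, 2127 and 623. Pdk1, which diverts pyruvate from mitochondria and is also a HIF target, was not called, at 2129, 2728 and 2136 and 2293, 2707 and 2583. The hypoxia response element ACGTGC was found in 11 of 18 promoters of the list and in 6.68% of all. Car9 (chr4:43506926-43507025, + strand) and Bnip3 (chr7:138909561-138909660, - strand) are shown with the element in capitals, read on the opposite strand in Car9 and on both strands, overlapping, in Bnip3.
Car9: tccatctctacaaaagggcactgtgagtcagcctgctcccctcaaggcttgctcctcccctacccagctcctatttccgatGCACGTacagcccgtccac
Bnip3: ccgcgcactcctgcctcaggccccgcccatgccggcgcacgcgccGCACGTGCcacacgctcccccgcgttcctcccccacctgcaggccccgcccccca

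NRF2 is the factor that answers oxidants. Of 29 genes of the NRF2 and glutathione system, 21 were lower and 6 higher (3 higher without culture 2 or culture 3). Pgd of the pentose phosphate pathway, which yields NADPH, read 3397, 4484 and 3947 in the tumors and 12118, 11994 and 9659 in the cells (log2 difference -1.51 ± 0.14 (SE), adjusted p = 1.12e-05), and Osgin1 read 865, 1034 and 584 against 3551, 3530.1 and 2958. Gpx3, a secreted peroxidase, was among the exceptions at 1963, 5359.7 and 1566 against 31.6, 26.0 and 27.8 (log2 difference 6.44 ± 0.38 (SE), adjusted p = 5.87e-07). The glutathione transferases Gsta4 and Gstm1 were lowest in tumor 3, Gsta4 at 4588, 2934 and 955 against 9388, 8249 and 7073, and reads of this family may be shared among copies. Of 14 heat shock and stress genes, 7 were lower and 2 higher, with Hspd1, the mitochondrial chaperonin, at 9173, 9168 and 8371 against 18659, 16890.0 and 20219.9. Chaperones of the endoplasmic reticulum were lower in 9 of 22 cases and higher in 3 (5 and 3 with the total count or with quantile normalization, under which the list median turned to 0.09). All 22 had a mean of at least 500 normalized counts, and 41.6% of all genes at that level were lower. Hspa5, the sensor chaperone BiP, was not called, at 17201, 19136 and 12912 and 19532, 18777 and 19566. Lysosomal genes were higher in 14 of 32 cases and lower in 4 (16 and 2 with the total count; 2 lower without culture 1 and 7 without culture 3). Cathepsin C (Ctsc), which activates granule proteases, read 3029.7, 1804 and 1911 against 122, 152 and 139 (log2 difference 3.98 ± 0.21 (SE), adjusted p = 2.85e-07).

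ERK relays growth factor signals to the nucleus. Of 20 genes that report ERK activity, 6 were higher and 5 lower, with a median log2 difference of 0.03 that turned to -0.02 with TMM size factors (8 and 3 with the total count or quantile normalization, and 3 lower without tumor 1, culture 1 or culture 2). Dusp6, the phosphatase that ERK induces to limit itself, read 6251, 8093 and 6532 in the tumors and 7615, 8107 and 7520.3 in the cells (log2 difference -0.16 ± 0.13 (SE), adjusted p = 0.29). Spred3, an inhibitor of the same cascade, read 1838, 1994 and 2229.7 against 624, 603 and 592 (log2 difference 1.73 ± 0.13 (SE), adjusted p = 2.11e-06), and the ETS factor gene Etv5 was lower at 1423, 1253 and 1263 against 2215, 2501 and 2130.5 (log2 difference -0.80 ± 0.12 (SE), adjusted p = 0.00028). Immediate early genes were higher in 16 of 25 cases and lower in none. Egr1 read 2038, 2220.1 and 1506 against 291, 275 and 244 (log2 difference 2.81 ± 0.17 (SE), adjusted p = 6.55e-07), and Fos read 621, 1916 and 314, highest in tumor 2, against 94.8, 77.0 and 70.8.

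Receptors and their ligands were next. Of 12 ErbB genes, 5 were higher and 2 lower (3 and 2 with quantile normalization, and 3 higher without tumor 1, tumor 2 or culture 2). Egfr read 1199, 1343 and 1191 in the tumors and 202, 304 and 245 in the cells (log2 difference 2.33 ± 0.17 (SE), adjusted p = 2.53e-06), and its ligand gene Hbegf read 5712, 8980.0 and 7706 against 3239, 3244 and 3133 (log2 difference 1.20 ± 0.16 (SE), adjusted p = 0.000106). Erbb2 was lower, at 1829, 1519 and 1646 against 2559.7, 2737 and 2203, and Erbb3 was not called, at 740.2, 791 and 601 and 566, 534 and 540.0. Nrg2, a ligand of Erbb3, gave the largest fall of the list, at 5.63, 23.4 and 12.1 against 211, 202 and 127. Axl, a receptor of the TAM family, was high in both and overlapped, at 13516, 16381 and 18172 in the tumors and 13348, 14157 and 12766 in the cells (log2 difference 0.25 ± 0.14 (SE), adjusted p = 0.147), while its relative Mertk, which macrophages use to clear dead cells, read 246, 329 and 221 against 25.3, 43.7 and 43.5. Of 29 other receptor tyrosine kinases, 20 were higher and 3 lower. Several of the higher ones, Pdgfrb, Csf1r, Kdr, Flt1 and Tek, are also on the fibroblast, macrophage or endothelial lists. Fgfr1 read 1136, 2019 and 1077 against 54.8, 94.7 and 68.6 (log2 difference 4.23 ± 0.28 (SE), adjusted p = 1.11e-06).

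Insulin-like growth factors and TGF-beta act between stroma and carcinoma cells. Of 12 genes of the insulin-like growth factor axis, 10 were higher and 1 lower, with 6 higher without culture 1. The ligand gene Igf1 read 519, 584 and 226 in the tumors and 2.11, 4.16 and 1.09 in the cells, and the binding protein gene Igfbp3 read 27082, 42341 and 42266 against 2747, 3314 and 3045 (log2 difference 3.59 ± 0.18 (SE), adjusted p = 2.02e-07). Of 22 genes of the TGF-beta pathway, 14 were higher and 2 lower. Inhba, which encodes the activin A chain, read 6079.7, 5118 and 9215 against 505, 533 and 789.8 (log2 difference 3.46 ± 0.23 (SE), adjusted p = 1.05e-06), and Id1, which BMP signals induce, was lower at 543, 427 and 456 against 1447, 1328 and 1353 (log2 difference -1.54 ± 0.14 (SE), adjusted p = 9.26e-06). Hedgehog genes were higher in 6 of 11 cases and lower in 2 (7 and 1 with the total count). Its receptor gene Ptch1 overlapped at 865, 805 and 751 and 802, 775 and 819, the effector gene Gli2 read 41.7, 49.1 and 38.6 with no culture read, and Gli1 read 4.51, 11.7 and 7.24 and 6.32, 1.04 and 4.90, under the filter on low values. YAP and TEAD targets were split, 7 higher and 6 lower (9 and 3 with the total count or quantile normalization). Ccn1 and Ccn2, secreted proteins that YAP induces, were higher, Ccn2 at 9676, 13873 and 6626 against 3858, 4259 and 3426 (log2 difference 1.33 ± 0.22 (SE), adjusted p = 0.000548), and Tead4 was lower at 115, 249 and 193 against 748, 736 and 758 (log2 difference -2.07 ± 0.25 (SE), adjusted p = 6.74e-05).

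Outside the lists, 5701 genes were called with no overlap and a mean of at least 100, and the 15 largest rises and 15 largest falls among them were examined. The rises were led by Sparcl1, a matrix protein of vessels and stroma, at 2347, 3506 and 1974 and no culture read, at least 989-fold higher, and Mgp, an inhibitor of calcification, at 1724, 5233 and 252 with tumor 2 highest. Sfrp1 and Serpinf1, secreted by stromal cells, Sirpa, the myeloid receptor for CD47, Mrc2, a collagen uptake receptor, and Colec12, a scavenger receptor of vessels, were also among them, as were Fndc1, Itm2a, Trp53i11, Ctla2a, Slit3, Adamts12, Olfml3 and Inhbb. Each of these 15 genes had at most 6 reads over the 3 culture libraries. Ctla2a was uneven, at 256, 3221 and 265.

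Adh7, the alcohol dehydrogenase of the stomach, read 43.9, 24.6 and 2.41 in the tumors and 592, 514 and 598 in the cells (log2 difference -5.17 ± 0.74 (SE), adjusted p = 0.000187), and Cyp2c65, a cytochrome P450 of the gut, read 117, 32.8 and 1.21 against 614, 523 and 553. Tumor 3 was the lowest tumor for both, and for the water channel Aqp8, the endocytic receptor Lrp2, Hal, Tcf23 and Ddc. Il1rn, the secreted antagonist of the interleukin 1 receptor, fell from a high level, at 2142, 1415 and 1064 against 16009, 15599 and 13820.3 (log2 difference -3.35 ± 0.21 (SE), adjusted p = 8.48e-07). Il22ra1, the epithelial receptor for interleukin 22, read 76.6, 131 and 34.97 against 801, 719 and 719 (log2 difference -3.38 ± 0.38 (SE), adjusted p = 3.94e-05). Gm3776 and Prl2c2 have near copies that may share their reads. Dnph1, Rmi2 and S100a7a were among the falls too. Rn7sk, a short nuclear RNA, ranged from 49.0 to 714 within the cultures and from 14.5 to 38.3 in the tumors.

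A few abundant noncoding RNAs were looked at after their values were seen. Malat1 read 15287, 10113 and 11072 in the tumors and 2522, 2228 and 3084 in the cells, and Neat1 read 15351, 6377 and 13388 against 2157, 1561 and 2427, both higher. The gene listed as CT010467.1 was lower, at 105068, 75878 and 67741 against 632294, 403462 and 200641, and was uneven among the cultures (log2 difference -2.19 ± 0.37 (SE), adjusted p = 0.00057). Short coding genes lay slightly lower than long ones: over 12637 protein-coding genes, the median log2 difference ran from -0.14 in the shortest of 5 length classes to 0.17 in the longest. The cause of this gradient was not tested. Subtracting the median of each gene's length class moved the list median of amino acid transporters from 0.04 to -0.02. It moved nuclear oxidative phosphorylation genes from -0.69 to -0.55, basement membrane genes from 0.52 to 0.35 and basal-like genes from 1.26 to 1.09.

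The same contrast could be read in libraries that share none of the 6, the 3 DRP-104 tumors and the 3 DON cultures, with the limit that both groups were drugged, by different compounds and routes. A further limit is that DRP-104 tumor 1 had reads in 17981 genes, against 22448 and 22524 in DRP-104 tumors 2 and 3. Its weight in the values below was not tested. There, 34.1% of 15282 genes tested were higher and 28.2% lower in the tumors. Of 4706 genes called higher in the untreated tumors and tested in both, 67.1% were higher there too and 4.33% were lower. Of 3958 genes called lower in the untreated tumors, 60.2% were lower there and 11.6% were higher. Stroma and leukocyte lists kept their side, with median log2 differences of 7.62 for fibroblasts, 5.82 for endothelial cells and 7.14 for macrophages. Nuclear genes of oxidative phosphorylation, 30 of 39 lower, and tRNA synthetases, 18 of 21 lower, also kept theirs. Mitotic genes did not: 14 of 28 were higher and 4 lower in the treated pair, with a median of 0.35. Glycolysis did not either, with 16 of 22 genes higher, 2 lower and a median of 0.91 there, against -0.46 in the untreated pair. The difference between the contrasts was not tested. Cholesterol synthesis had 13 of 25 lower and 2 higher, with a median of -0.46. Epithelial genes were higher in 18 of 20 cases and lower in none there, and the 8 fibrillar collagens tested in both contrasts had a median of 9.42 there and 9.62 in the untreated one.

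**Figure D5:**
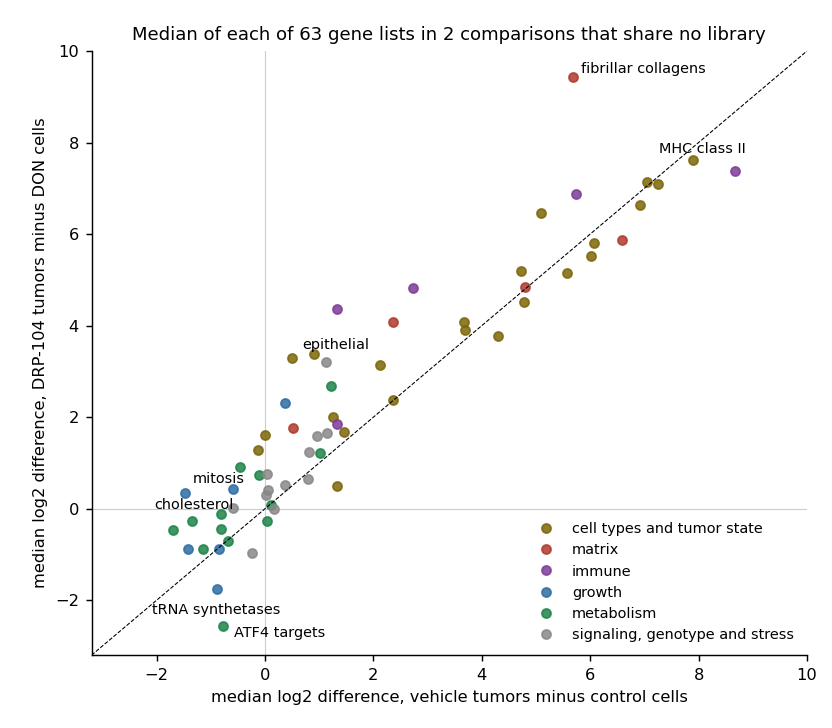
Median log2 difference of each of 63 gene lists with at least 5 tested genes, in vehicle tumors minus control cells (horizontal axis) and in DRP-104 tumors minus DON cells (vertical axis), with a dashed line at equal values. Lists of stroma and leukocytes lie at upper right, mitosis lies below 0 horizontally and above 0 vertically, and ATF4 targets lie lowest vertically.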

How the data were processed

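RNA sequencing of total RNA was compared between 3 vehicle tumors and 3 control cell cultures, grouped by their labels. The deposited tables held, per gene, read counts that the authors' provider divided by a DESeq2 size factor, a signal never below 0. Alignment was with HISAT2, and the submitters' processing notes also name STAR 2.5, CASAVA and GRCm39. Whether strand was used in counting is not given in the sources used here. The control columns of the culture table are named as vehicle, with no replicate link to a label beyond the group. Fold changes and p-values of the authors in these tables were not used. At least 99.9946% of values in every library of both tables, treated ones included, came out as whole reads to within 0.0051 normalized counts. Both tables were joined on gene, and the 6 libraries were rescaled by median of ratios. Genes with a mean of at least 10 were tested with limma 3.58.1 (R 4.3.3, with a mean-variance trend) on log2(value + 1), so fold changes of low genes are understated, with Benjamini-Hochberg adjustment at 0.05. edgeR 4.0.16 and DESeq2 1.42.0 on recovered reads, other scalings, filters and leaving out each library were alternatives. On simulated data in which 200 of 15009 genes changed, limma found 48% of 2-fold and 85% of 4-fold changes, and 7.64% of 144 calls were unchanged genes. In the real data 59.7% of genes were called, so these rates cannot be carried over to the comparison. Gene lists and the comparison were chosen with earlier results of these data known, and named genes are list members picked for illustration after their values were seen, or the 15 largest rises and falls outside the lists. Malat1, Neat1, Xist and CT010467.1 were added after their values were seen. Promoter sequences came from RefSeq on GRCm38.p6. Some list members are counted in their lists but not reported here by name. Python 3.11 drew the figures. Gene lengths were taken from a deposited annotation table.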

Additional observations from a re-analysis of the deposited data

Results flagged for a closer look

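For 2 gene lists, the score over the members (the mean of log2(value + 1) in each library) moved in opposite directions in the untreated and the treated contrast, with no overlap between tumors and cells in either. The mitosis score differed by -1.502 between vehicle tumors and control cells and by 0.436 between DRP-104 tumors and DON cells (tumors minus cells). The score of G1 cyclins and CDK inhibitors differed by -0.336 in the untreated and by 0.416 in the treated contrast. The difference between the contrasts was not tested, and the tumors and cells of the treated contrast received different drugs. DRP-104 tumor 1 also had reads in fewer genes (17981) than the other DRP-104 tumors.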

How the results depend on the processing

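Of 235 named genes tested, 20 lost and 16 gained a call under at least 1 alternative, and none turned direction while called. Scaling decided the split between higher and lower calls. With the total count, 2617 genes were called lower and 702 were over 2-fold lower. With quantile normalization, 2084 were over 2-fold higher and 2297 over 2-fold lower. Among genes with a mean of at least 50, 3291 were called higher and 1874 over 2-fold higher. Leaving out 1 library gave 7569 to 8718 calls, 4259 to 4797 higher and 3310 to 3921 lower, with 3227 to 3526 over 2-fold higher and 1135 to 1336 over 2-fold lower. Of 10 lists whose median turned sign under some alternative, 4 had a median beyond the spread of their library scores. These turned for epithelial genes (-0.35) and p53 targets (-0.056) at a mean of at least 50, for p53 targets (-0.14), histones (-0.89) and ER chaperones (0.088) with quantile normalization, and for p53 targets without vehicle tumor 2 (-0.078, the lowest of a range to 0.257 over libraries left out). The other 6 were mesothelial, gastric-like, amino acid transporter (to -0.40 at a mean of at least 50), lipid uptake (0.12 with the total count), ERK and YAP genes. The causes were not tested. Without 1 library, 12 named genes lost their call: Cdh1, Cdkn2a, Col4a1, Cx3cl1, Gm3776, Gstm1, H1f0, Igkc, Irgm1, Krt18, Muc5ac and Tpm2. Tumors and cultures share replicate numbers only as numbers, with correlations of deviations of -0.011, 0.018 and -0.011, so they were not treated as paired. The replicate block gave 8717 calls, 4897 higher and 3820 lower. Dividing the reads of the cells by 2, chosen after seeing the data, gave 8676 calls in edgeR, against 8684 without it. Depth of 19.7 M to 48.2 M reads limits genes with few reads, for which levels near 3 reads cannot be told from 0.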
